A study of Mus musculus with 4 samples.

Results

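Polyamine metabolism was read through 10 genes, Odc1, Amd1, Srm, Sms, Azin1, Oaz1, Oaz2, Sat1, Smox and Paox. They were chosen by name from the deposited gene expression table, and all 10 were found among its 34745 genes, 1 row each. The study sequenced total RNA from splenic CD4+ T cells, all of them wild type and of strain C57BL/6, in 4 libraries with 1 library per group. The Th17 library came from cells kept for 3 days under Th17 differentiation conditions, and the Treg library from cells kept for 3 days under Treg differentiation conditions. The Th0 cells had been stimulated with antibodies to CD3 and CD28 for 3 days, and the naive library was made from CD4+ T cells selected straight from the spleen. Neither the cytokines added, nor the age of the mice, nor whether animals were pooled is stated in the labels.

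Polyamines are small positively charged molecules that bind nucleic acids and are needed for growth and translation. Ornithine decarboxylase (Odc1) makes putrescine from ornithine, and S-adenosylmethionine decarboxylase (Amd1) makes the aminopropyl donor with which spermidine synthase (Srm) and spermine synthase (Sms) extend it. Antizymes (Oaz1, Oaz2) bind ornithine decarboxylase and send it to the proteasome, while the antizyme inhibitor Azin1, an inactive relative of the enzyme, takes antizyme away from it. Catabolism runs through the acetyltransferase Sat1 followed by the oxidase Paox, or directly through spermine oxidase (Smox), which returns spermine to spermidine and releases hydrogen peroxide. In T cells, polyamine synthesis is known to rise with activation and to influence helper T cell differentiation. RNA was measured here, and the amount of enzyme was not.

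The promoters of Smox, Odc1 and Sat1 are shown because, of the members with a RefSeq promoter window, these 3 differed most between libraries. Each runs from 250 bases before to 50 bases after the RefSeq start on GRCm38.p6, 5′ to 3′ on the strand of the gene, at chr2:131491612-131491911 (plus strand), chr12:17544623-17544922 (plus strand) and chrX:155216400-155216699 (minus strand). Capitals mark GC boxes, GGGCGG on either strand.
Smox: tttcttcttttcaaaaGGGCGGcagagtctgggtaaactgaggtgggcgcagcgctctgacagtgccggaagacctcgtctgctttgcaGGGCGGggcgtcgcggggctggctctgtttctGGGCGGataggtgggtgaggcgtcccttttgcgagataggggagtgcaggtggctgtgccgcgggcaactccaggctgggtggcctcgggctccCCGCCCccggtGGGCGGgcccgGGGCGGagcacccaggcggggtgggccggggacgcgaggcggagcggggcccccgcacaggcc
Odc1: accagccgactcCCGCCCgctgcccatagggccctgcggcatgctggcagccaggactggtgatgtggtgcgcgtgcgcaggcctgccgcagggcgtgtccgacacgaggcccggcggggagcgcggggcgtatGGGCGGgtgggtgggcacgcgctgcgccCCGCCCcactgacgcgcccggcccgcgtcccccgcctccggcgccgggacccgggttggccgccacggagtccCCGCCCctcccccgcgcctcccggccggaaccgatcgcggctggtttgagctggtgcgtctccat
Sat1: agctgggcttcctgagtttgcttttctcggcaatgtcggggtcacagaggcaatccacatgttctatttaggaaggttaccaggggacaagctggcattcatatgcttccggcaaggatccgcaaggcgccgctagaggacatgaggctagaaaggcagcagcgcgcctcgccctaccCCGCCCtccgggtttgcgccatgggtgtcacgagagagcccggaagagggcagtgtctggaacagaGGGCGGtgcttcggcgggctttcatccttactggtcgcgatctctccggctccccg

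The Smox window held 6 GC boxes, the Odc1 window 4 and the Sat1 window 2, with no overlap between matches. A GC box was found in 8 of the 10 RefSeq windows of the members, from 7 of the 8 members with a window. Of all 32851 windows, 35.7% held it. The E-box CACGTG, read on both strands, was in none of these 3 windows. Among the members it was found once, 196 bases before the start in a window of Sms, and 7.15% of all windows held it. The cAMP response element TGACGTCA was in no member's window and in 1.79% of all windows.

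A second set shows the stop codon at which antizyme translation shifts frame, because within it a read of Oaz1 cannot be told from a read of the processed pseudogene Oaz1-ps. Capitals mark the last codon read in the first frame and the stop codon after it, in transcripts of the GENCODE vM21 annotation of GRCm38. Oaz1 lies on chromosome 10, Oaz1-ps on chromosome 17 and Oaz2 on chromosome 9.
Oaz1: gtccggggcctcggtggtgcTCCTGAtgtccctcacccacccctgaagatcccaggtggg
Oaz1-ps: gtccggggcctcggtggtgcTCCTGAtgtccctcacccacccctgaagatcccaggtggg
Oaz2: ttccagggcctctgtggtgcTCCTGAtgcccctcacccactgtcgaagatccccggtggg

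The Oaz1-ps stretch matched that of Oaz1 at 60 of 60 bases, and the Oaz2 stretch at 51 of 60. Over 685 aligned bases Oaz1-ps was 99.3% identical to an Oaz1 transcript. It carried 1228 counts in Th17, 1224 in Treg, 1265 in Th0 and 1351 in naive, against 1436, 1518, 1810 and 1320 counts of Oaz1 in the same libraries.

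The total count was 12414372 in Th17, 10256627 in Treg, 10272122 in Th0 and 11901949 in naive. Levels are CPM, counts scaled by the effective library size, and 1 count was worth 0.0766 CPM in Th17, 0.0902 in Treg, 0.114 in Th0 and 0.0814 in naive. With 1 library per group no difference below has a replicate check and no test between conditions was possible. Every interval is an exact 95% counting interval, which covers counting error only. The rule for a call, in either direction, asked for a 2-fold difference or more after 1 CPM had been added, and for a count ratio whose interval excluded equality. The 7 CD4 T cell markers had at least 10 counts in all 4 libraries, and summed to 2929 CPM in Th17, 3186 in Treg, 3583 in Th0 and 2710 in naive. Il17a had 90.9 CPM in Th17, 14.7 in Treg, 0 in Th0 and 0.244 in naive, and Foxp3, the Treg transcription factor gene, had 11.3, 51.5, 1.37 and 129 CPM in the same order. Foxp3 was thus highest in the naive library and did not set the Treg library apart from it. The 6 markers of CD8 T and NK cells summed to 204 CPM in Th17, 273 in Treg, 147 in Th0 and 111 in naive. Of these, Gzma had 157, 190, 44.1 and 12.5 CPM in the same order, while Klrb1c and Ncr1 were highest in naive. Markers of macrophages, dendritic cells, B cells and neutrophils stood apart in the naive library. The 12 macrophage markers summed to 37.5 CPM in Th17, 53.7 in Treg, 32.0 in Th0 and 4748 in naive, with Mertk and Siglec1 at 0 in Th0 and none at 0 elsewhere. Csf1r, a receptor gene among these markers, had 3.91 CPM in Th17, 4.87 in Treg, 0.800 in Th0 and 769 in naive. The 7 dendritic cell markers summed to 17.9 CPM in Th17, 27.9 in Treg, 9.02 in Th0 and 340 in naive. The 8 markers of B cells reached 74.1 CPM in Th17, 20.02 in Treg, 121 in Th0 and 1578 in naive, and the 8 neutrophil markers 4.14, 4.42, 1.26 and 1472 CPM in the same libraries. The part of these cells in the naive levels below was not tested, and in bulk RNA fewer cells of a type and less RNA per cell cannot be told apart.

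**Figure D1:**
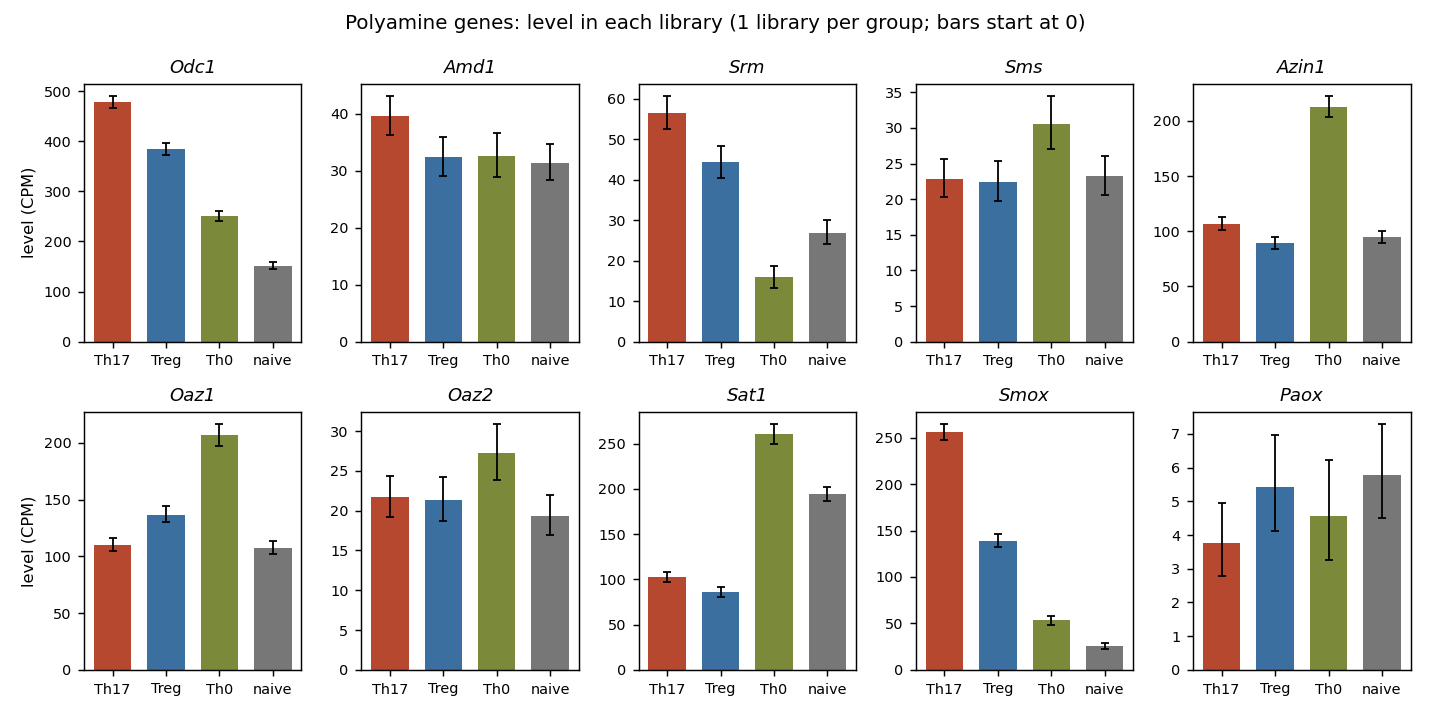
Level of each of the 10 genes in CPM (y axis, starting at 0, its own scale in each panel) in the Th17, Treg, Th0 and naive libraries (x axis); bars are single libraries and whiskers exact Poisson 95% counting intervals. Odc1 and Smox stood highest in Th17, at 478 and 256 CPM, while Sat1 and Azin1 stood highest in Th0, at 261 and 213 CPM.

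Odc1, the first and rate-limiting enzyme of the pathway (chromosome 12, 17544873 to 17551502, plus strand), had 478 CPM in Th17, 384 in Treg, 250.1 in Th0 and 151 in naive. The levels stood in that order, and each neighbour was apart from the next beyond counting error. Odc1 was 3.16-fold higher in Th17 than in naive (interval 3.00 to 3.34) and 2.54-fold higher in Treg than in naive (2.41 to 2.69), and both were called. It was 1.65-fold higher in Th0 than in naive (1.56 to 1.76), which did not reach the 2-fold rule. Over Th0 the ratio was 1.91-fold in Th17 (1.82 to 2.01) and 1.54-fold in Treg (1.46 to 1.62), neither of them called, and with library totals the Th17 ratio passed the rule (log2 ratio 1.23). Odc1 has stretches of near-identical sequence in other annotated genes. Of these, AW146154, 95.2% identical over 500 bases, had 10 to 151 counts in a library, against 1857 or more for Odc1. It had the shortest alignment. Gm17709, Gm9115, Gm7993 and Gm9260, aligned over 937 to 1401 bases, had no counts to compare, so their part in the Odc1 reads was not tested. By FPKM, which also divides the count by gene length, Odc1 ranked 146 of 13043 genes with at least 10 counts in Th17, 184 of 12799 in Treg, 432 of 11686 in Th0 and 601 of 13526 in naive.

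Srm, which makes spermidine (chromosome 4, 148591503 to 148594993, plus strand), followed another order. It had 56.5 CPM in Th17, 44.3 in Treg, 15.9 in Th0 and 26.9 in naive, so that Th0 was the lowest library and all neighbours were apart. Srm was 3.56-fold higher in Th17 than in Th0 (2.96 to 4.29) and 2.79-fold higher in Treg than in Th0 (2.31 to 3.39), and both were called under all 4 scalings tried. Over naive it was called in Th17 at 2.10-fold (1.84 to 2.39), but with DESeq2 size factors the log2 ratio was 0.99, short of the rule. It was not called in Treg at 1.64-fold (1.43 to 1.90). In Th0 it was below naive, at 0.589 of the naive level (0.480 to 0.721), which did not reach 2-fold.

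Amd1 and Sms varied least among the synthesis genes. Amd1 (chromosome 10, 40287458 to 40302188, minus strand) had 39.5 CPM in Th17, 32.4 in Treg, 32.6 in Th0 and 31.3 in naive, and Treg, Th0 and naive were not apart beyond counting error. Sms (chromosome X, 157443855 to 157492287, minus strand) had 22.8 CPM in Th17, 22.5 in Treg, 30.6 in Th0 and 23.2 in naive, with only Th0 apart from its neighbour in that order. Neither gene was called in any of the 6 comparisons, and the sign of the ratio over naive flipped between scalings for Amd1 in Treg and Th0 and for Sms in Th17 and Treg. Amd1 shares 3202 aligned bases at 99.6% identity with Amd2, which had at most 39 counts in a library, and 1005 bases with Amd-ps3 at 99.9% identity, so its reads are uncertain. With Amd2 and the Amd pseudogenes summed in, an alternative chosen after seeing the data, its log2 ratio for Th0 over naive was -0.26 against 0.05. Sms shares 1101 aligned bases at 100% identity with Sms-ps, and similar lengths at 95% or more with Gm6292 and Gm8234. These copies had no counts to compare, so the reads of Sms are uncertain too.

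The antizymes and the antizyme inhibitor were all highest in Th0, for Oaz2 by a margin that depended on the scaling. Azin1 (chromosome 15, 38487430 to 38519266, minus strand) had 107 CPM in Th17, 89.3 in Treg, 213 in Th0 and 94.7 in naive. It was called higher in Th0 than in naive at 2.25-fold (2.09 to 2.42) and lower in Treg than in Th0, at 0.420 of the Th0 level (0.388 to 0.453). In Th17 it was at 0.502 of the Th0 level (0.468 to 0.538), just short of the rule. With library totals neither call was kept, at log2 ratios of 0.89 and -0.90. An antisense gene, Gm49077, overlaps Azin1, and since the strand of the counting is not given their reads cannot be told apart.

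Oaz1 (chromosome 10, 80826656 to 80829290, plus strand) had 110.0 CPM in Th17, 137 in Treg, 207 in Th0 and 107 in naive. Th17 and naive were not apart beyond counting error, and no comparison was called, the widest being Th0 over naive at 1.92-fold (1.79 to 2.07). With the pseudogene's counts added, an alternative chosen after seeing the data, the log2 ratio for Th0 over naive was 0.69 against 0.94 for Oaz1 alone. Oaz2 (chromosome 9, 65668001 to 65690300, plus strand) had 21.7 CPM in Th17, 21.4 in Treg, 27.2 in Th0 and 19.4 in naive. Th0 was apart from the others on this scaling, with no call. The Oaz2 log2 ratio over Th0 was -0.31 in Th17 and -0.33 in Treg. With library totals these ratios were -0.02 and -0.0037, so the higher Oaz2 level in Th0 than in the polarised libraries rested on the scaling.

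The catabolic genes Sat1 and Smox differed in opposite directions in the polarised libraries. Sat1, which acetylates spermidine and spermine and marks them for export or oxidation (chromosome X, 155213132 to 155216449, minus strand), had 102 CPM in Th17, 86.2 in Treg, 261 in Th0 and 195 in naive. Both polarised libraries lay below Th0 and naive, and all neighbours were apart. Sat1 was called lower in Th17 than in Th0, at 0.393 of its level (0.367 to 0.420), and in Treg than in Th0, at 0.331 (0.307 to 0.357). Against naive it was called lower in Treg, at 0.443 of the naive level (0.411 to 0.478), and stood at 0.526 in Th17 (0.492 to 0.563), short of the rule. The summed B cell markers, at 74.1 CPM in Th17, 20.02 in Treg, 121 in Th0 and 1578 in naive, were also lower in Th17 and Treg than in Th0 and naive. Taken singly, 3 of the 8 B cell markers were called lower in Th17 than in Th0, 1 higher and 4 neither. Of all genes assessed, 12.2% were lower and 20.4% higher in that comparison. In Treg over Th0, 7 of the B cell markers were assessed and 7 were called lower, against 11.9% of all genes. The macrophage markers summed to 37.5, 53.7, 32.0 and 4748 CPM in the same libraries and the neutrophil markers to 4.14, 4.42, 1.26 and 1472 CPM. The part of any of these cells in the Sat1 levels was not tested.

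Smox (chromosome 2, 131491496 to 131525922, plus strand) had the widest range of the 10 genes, 10.01-fold. It had 256 CPM in Th17, 139 in Treg, 53.3 in Th0 and 25.6 in naive, and every neighbour in that order was apart. Against naive it was 10.01-fold higher in Th17 (8.91 to 11.3), 5.44-fold higher in Treg (4.81 to 6.16) and 2.09-fold higher in Th0 (1.81 to 2.42). The first 2 were called under all 4 scalings, and Th0 over naive under 2 of them, with a log2 ratio of 0.76 with library totals. Against Th0 it was 4.79-fold higher in Th17 (4.35 to 5.29) and 2.61-fold higher in Treg (2.35 to 2.90). Between the polarised cultures, Smox was the member furthest apart, 1.84-fold higher in Th17 than in Treg (1.73 to 1.96), above 97.3% of the 13346 genes assessed in that comparison though not called.

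Paox, the peroxisomal oxidase of acetylated polyamines (chromosome 7, 140125657 to 140134334, plus strand), had 3.75 CPM in Th17, 5.41 in Treg, 4.57 in Th0 and 5.78 in naive. These rest on 49, 60, 40 and 71 counts, the fewest of the 10 in each library. By FPKM it was not the lowest in naive, at 3.07 against 2.97 for Smox. No neighbours in the order of CPM were apart, although the interval of Th17 over naive, 0.442 to 0.948, excluded equality. Its exons overlap Echs1 on the other strand, a gene with 387 to 517 counts, and with the strand of the counting not given their reads cannot be told apart. Paox also shares 1358 aligned bases at 99.9% identity with Gm19680, which had no counts to compare.

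**Figure D2:**
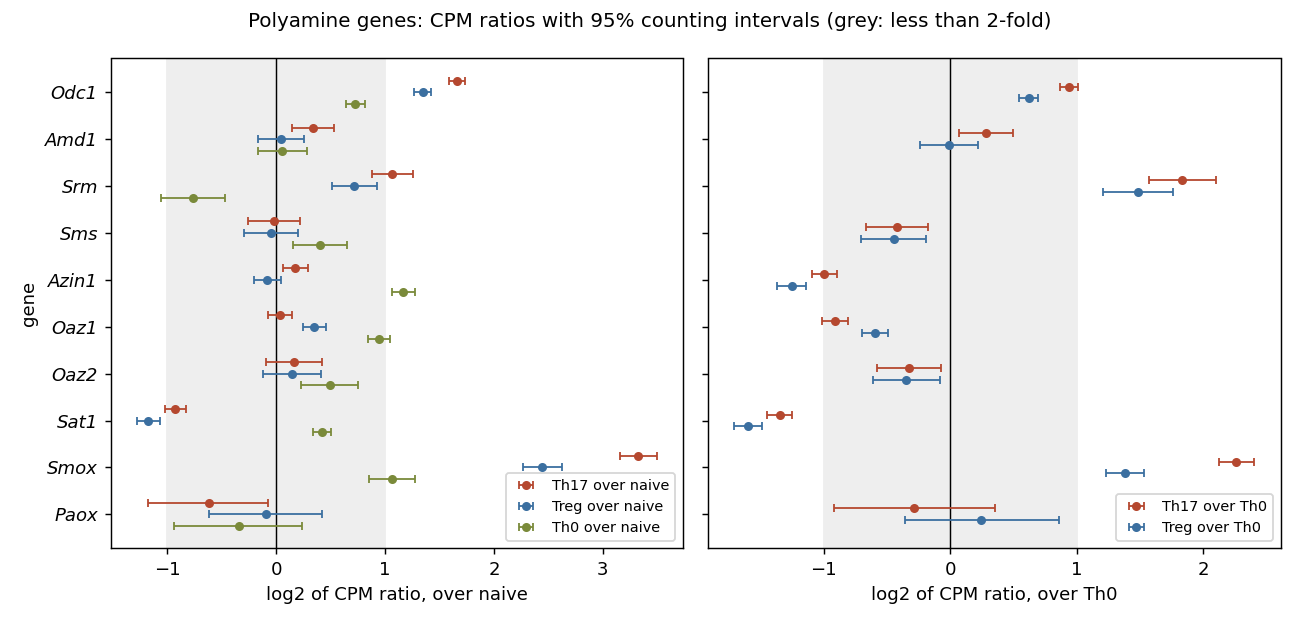
Log2 ratio of CPM without a pseudocount (x axis) for each gene (y axis), over naive in the left panel and over Th0 in the right, with 95% counting intervals as whiskers and ratios under 2-fold shaded. Smox lay furthest right in Th17 in both panels, Srm lay to the right of Smox for Treg over Th0 (2.79-fold against 2.61-fold), and Sat1 in Treg lay beyond the shaded band on the left side of both.

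Set against the share of all genes called in either direction, the members' share was above it in Treg over Th0 and below it in the other comparisons, and the counts are no result about the set. All 10 passed the count filter in every comparison. For Th17 over naive, 3 of 10 were higher (Odc1, Srm and Smox) and 0 lower, where 15.6% of all 14523 genes assessed were higher, 17.4% lower and 33.1% either. For Treg over naive, 2 were higher (Odc1 and Smox) and Sat1 lower, against 14.9% higher, 16.8% lower and 31.7% either of 14350. For Th0 over naive, 2 were higher (Azin1 and Smox) and 0 lower, against 18.5%, 27.2% and 45.7% of 13995. For Th17 over Th0, 2 were higher (Srm and Smox) and Sat1 lower, against 20.4%, 12.2% and 32.6% of 13324. For Treg over Th0, 2 were higher (Srm and Smox) and 2 lower (Sat1 and Azin1), against 20.2%, 11.9% and 32.1% of 13138. For Th17 over Treg, 0 of 10 were called, where 1.94% of 13346 genes were higher, 1.21% lower and 3.15% either. The median log2 ratio of the members was 0.16, 0.09, 0.44, -0.27, -0.17 and 0.25 in these 6 comparisons in order. Over all genes assessed the median was -0.00069, -0.02, -0.13, 0.10, 0.08 and 0.01. The comparisons share libraries, so calls over naive in several cultures rest on 1 naive library, and calls over Th0 on 1 Th0 library.

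Ratios between members within a library do not depend on the scaling, and their change between libraries does not depend on gene length. The FPKM ratio of Odc1 to Sat1, the rate-limiting steps of synthesis and of acetylation, was 8.98 in Th17 (8.47 to 9.54), 8.56 in Treg (7.98 to 9.19), 1.85 in Th0 (1.74 to 1.96) and 1.49 in naive (1.40 to 1.59). The polarised libraries thus stood apart from Th0 and naive, while their own intervals overlapped. The ratio of Odc1 to Oaz1 was 9.18 in Th17, 5.92 in Treg, 2.55 in Th0 and 2.97 in naive. Smox to Sat1 showed the widest shift, at 1.38 in Th17 (1.29 to 1.47), 0.887 in Treg (0.818 to 0.963), 0.113 in Th0 (0.102 to 0.125) and 0.0723 in naive, a 19.0-fold difference between Th17 and naive. Srm to Sms was 9.68 in Th17, 7.72 in Treg, 2.03 in Th0 and 4.55 in naive.

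**Figure D3:**
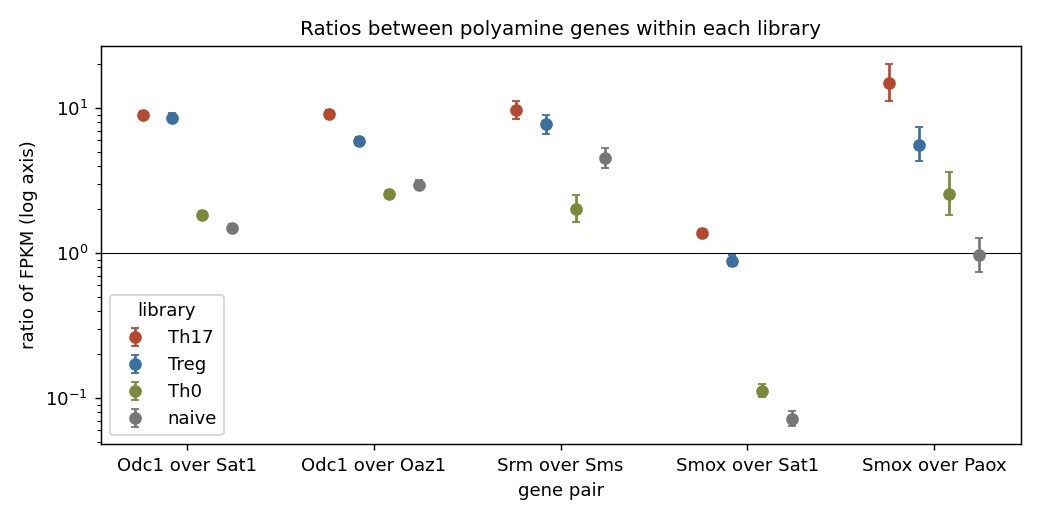
Ratio of the authors' FPKM of 5 gene pairs (x axis) within each library, on a log y axis, with 95% counting intervals as whiskers and 1 library per point. The Smox to Sat1 ratio was 1.38 in Th17 and 0.0723 in naive, and the Odc1 to Sat1 ratio was above 8 in Th17 and Treg and below 2 in Th0 and naive.

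Levels between genes depended on the length used. On FPKM, Odc1 was the highest member in every library, with 197 FPKM in Th17, 163 in Treg, 83.7 in Th0 and 61.3 in naive, against 22.0, 19.0, 45.4 and 41.0 FPKM for Sat1. The 4 synthesis genes made up 73.6% of the members' summed FPKM in Th17, 72.3% in Treg, 50.1% in Th0 and 53.2% in naive. Odc1 alone made up 59.5%, 58.4%, 40.8% and 36.7% in the same libraries, and Srm 9.22%, 8.84%, 3.40% and 8.58%. The lengths behind these FPKM exceeded the exon length in GENCODE vM21 for 7 of 10 members, for example 5376 against 2558 bases for Oaz1 and 8892 against 3894 for Smox. With counts per kilobase of the principal transcript, an alternative chosen after seeing the data, the synthesis share was 44.9% in Th17, 42.9% in Treg, 22.1% in Th0 and 25.1% in naive. On that scale both Sat1 and Oaz1 stood above Odc1 in Th0 and naive, so the order of those genes there is not settled. The higher synthesis share in Th17 and Treg was seen with both lengths. Against naive it lay mostly in Odc1, while the shares of Amd1 and Sms were lower in Th17 and Treg than in naive.

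Genes around the core pathway were taken from lists by pathway. Of 7 genes of ornithine supply, 4 or 5 were assessed in each comparison and the others had too few counts. Arg1, the arginase that makes ornithine, had 10.6 CPM in Th17 (138 counts), 16.4 in Treg (182 counts), 0 in Th0 and 0.488 in naive (6 counts). It was 21.6-fold higher in Th17 than in naive (9.70 to 60.01), 33.6-fold higher in Treg than in naive (15.1 to 92.8), and at least 30.9-fold and 47.9-fold higher in Th17 and Treg than in Th0, taking 3 counts in Th0. Arg1 is also a gene of macrophages, whose markers summed to 37.5 CPM in Th17, 53.7 in Treg, 32.0 in Th0 and 4748 in naive. The part of macrophages in the Arg1 levels was not tested. Arg2, the mitochondrial arginase, had 9 counts in Th17, 12 in Treg, 0 in Th0 and 46 in naive, and was called lower than naive in all 3 cultures and higher in Treg than in Th0.

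Aldh18a1, whose enzyme makes the precursor shared by proline and ornithine, had 232 CPM in Th17, 179 in Treg, 115 in Th0 and 69.8 in naive. It was called over naive in Th17 (3.32-fold) and Treg (2.56-fold), and over Th0 in Th17 at 2.02-fold, under 3 of 4 scalings. Slc25a15, the mitochondrial ornithine carrier, had 8.12 CPM in Th17, 10.6 in Treg, 2.63 in Th0 and 7.90 in naive, and was called higher over Th0 in both polarised libraries and lower in Th0 than in naive. Over naive, 2 of 5 ornithine supply genes assessed were higher and 1 lower in Th17, where 15.6% of all genes were higher and 17.4% lower, and likewise 2 and 1 of 5 in Treg, against 14.9% and 16.8%. In Th0 over naive, 0 of 4 were higher and 2 lower, against 18.5% and 27.2%. Over Th0, 3 of 4 were higher and 0 lower in Th17, against 20.4% and 12.2%, and 3 of 5 higher and 0 lower in Treg, against 20.2% and 11.9%. Relative to naive, the list's median log2 ratio was 0.11 in Th17, 0.39 in Treg and -0.43 in Th0, and relative to Th0 it was 1.17 in Th17 and 1.06 in Treg, beside the medians of all genes given above.

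Among 5 paralogues of the members, Azin2, a second antizyme inhibitor, had 7.36 CPM in Th17 (96 counts), 8.03 in Treg (89 counts), 1.03 in Th0 (9 counts) and 0.0814 in naive (1 count). It was 90.4-fold higher in Th17 than in naive (15.8 to 3606) and 98.6-fold higher in Treg (17.2 to 3938), and 7.15-fold and 7.81-fold higher in Th17 and Treg than in Th0. Azin1 itself was not called over naive in either polarised library. Amd2 was called higher in Th17 than in Th0 on 39 against 8 counts, with the uncertainty of its copy Amd1. Oaz3, Sat2 and Satl1 had at most 4 counts in any library and were not assessed.

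Hypusination attaches part of spermidine to the translation factor eIF5A. Eif5a had 496 CPM in Th17, 408 in Treg, 203 in Th0 and 268 in naive, and was called higher in Th17 than in Th0 (2.45-fold) and in Treg than in Th0 (2.01-fold, under 3 of 4 scalings). Eif5a2, its paralogue, had 9.65 CPM in Th17, 16.1 in Treg, 4.45 in Th0 and 11.5 in naive, and was called higher in Treg than in Th0 and lower in Th0 than in naive. The hypusination enzymes Dhps and Dohh were called in no comparison, lying between 18.8 and 20.9 CPM and between 22.2 and 29.8 CPM.

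Of 8 genes of S-adenosylmethionine supply and methylthioadenosine salvage, 7 were assessed. Mat2a, the catalytic subunit of methionine adenosyltransferase, had 254 CPM in Th17, 136 in Treg, 115 in Th0 and 135 in naive, and was called higher in Th17 than in Th0 (2.21-fold). Its regulatory subunit Mat2b had 43.8 CPM in Th17, 70.4 in Treg, 134 in Th0 and 104 in naive, and was called lower in Th17 than in Th0 and in naive. Mtap, which salvages the by-product of spermidine and spermine synthesis, was lower and Apip, a later enzyme of that salvage, higher in Th0 than in naive, and Adi1, a further salvage enzyme, was lower in Treg than in Th0. The Apip and Adi1 calls held under 3 of 4 scalings. No other gene of this list was called.

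Of 9 transport genes, 3 or 4 were assessed. Atp13a2, a lysosomal polyamine exporter, had 74.7 CPM in Th17, 85.0 in Treg, 52.2 in Th0 and 142 in naive, and was called lower in Th0 than in naive. Slc3a2, the heavy chain of amino acid exchangers that has also been linked to polyamine export, had 226 CPM in Th17, 149 in Treg, 323 in Th0 and 136 in naive. It was called higher in Th0 than in naive and lower in Treg than in Th0, each under 3 of 4 scalings. Atp13a3, the related polyamine importer, was called in no comparison. Myc, a known activator of Odc1 transcription, had 65.3 CPM in Th17, 54.7 in Treg, 26.7 in Th0 and 58.3 in naive. It was called higher than Th0 in Th17 (2.44-fold) and in Treg (2.05-fold, under 3 of 4 scalings) and lower in Th0 than in naive.

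**Figure D4:**
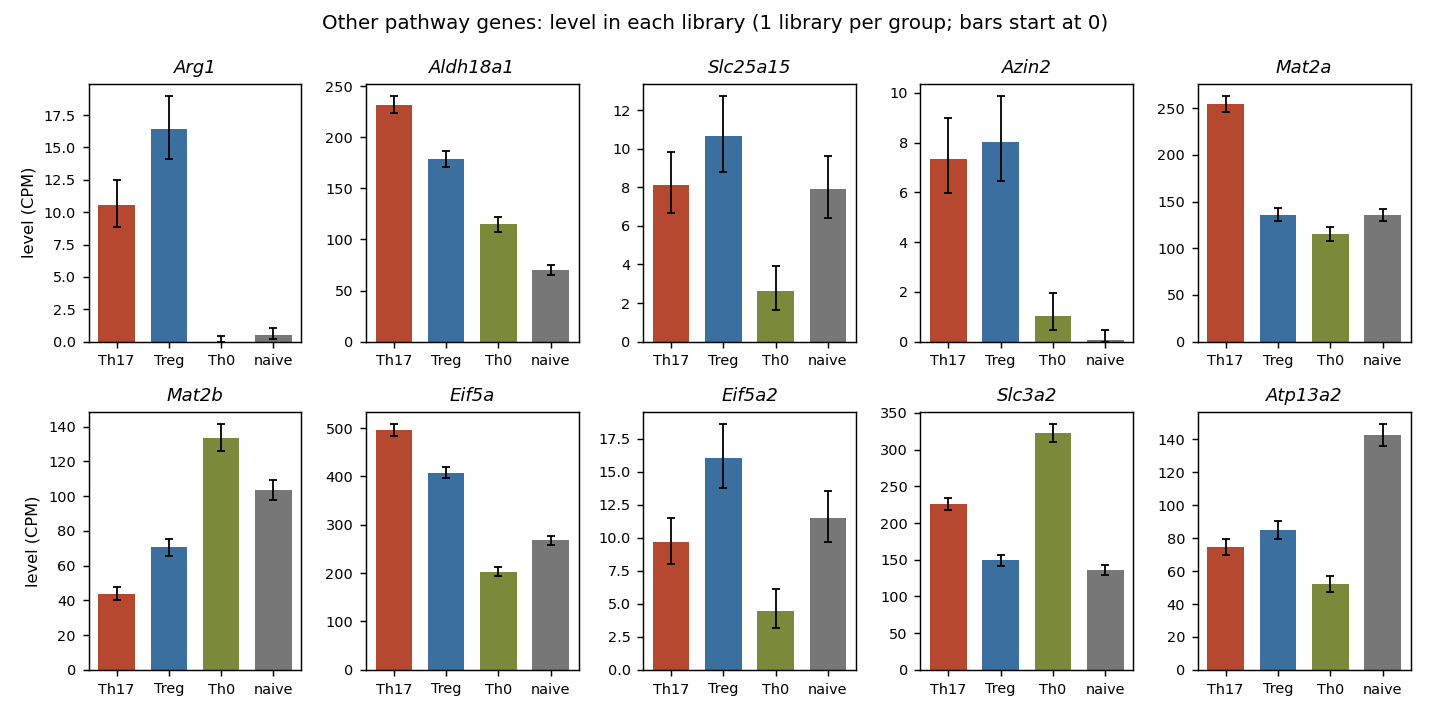
Level in CPM (y axis, starting at 0, its own scale in each panel) of 10 genes around the core pathway in the Th17, Treg, Th0 and naive libraries (x axis), with exact Poisson 95% counting intervals as whiskers. Arg1 and Azin2 were highest in Treg and next in Th17, with 0 and 9 counts in Th0 and 6 and 1 in naive, while Slc3a2 stood highest in Th0 at 323 CPM.

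The genes closest to Odc1 in profile were sought among 10002 genes with at least 10 CPM in a library, by the distance between log2 levels centred on their mean over the 4 libraries. Among the nearest were Zeb1, Aldh18a1, Mrps10 and Pja1, at distances of 0.05, 0.06, 0.09 and 0.10 log2 units. Aldh18a1 is thus both in the ornithine supply list and second in likeness. For Sat1 the nearest were Sptb, Ddx3y, Inpp1, Rnf13 and Slc26a11, at 0.08, 0.12, 0.15, 0.15 and 0.16. With 4 libraries such likeness is a description, and 199 genes lay within 0.5 log2 units of Odc1 and 169 of Sat1.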

How the data were processed

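The authors deposited raw read counts per gene, whole numbers with no normalization, and FPKM values per the file headers. The FPKM equalled the count divided by a fixed gene length and by the table total. The submitters' processing notes name Bowtie2, RSEM, GRCm38.p6 and mm10, but give neither a version nor a role. Groups followed the cell type in the labels, with 1 library in each. Counts were scaled with TMM factors (edgeR 4.0.16 in R 4.3.3) of 1.05 for Th17, 1.08 for Treg, 0.852 for Th0 and 1.03 for naive. In 6 comparisons, a gene entered with 10 or more counts in either library and was assessed over the whole table by the log2 ratio of CPM after adding 1, and called at 2-fold or more when the 95% Clopper-Pearson interval, conditional on the summed count, left out a count ratio of 1. No molecular identifiers are named in the labels, and intervals cover counting error only. The members, lists and rules were chosen with earlier results of these data known. The genes named were the 10 members, up to 4 called genes of each pathway list per comparison, and the 5 genes nearest in profile to Odc1 and to Sat1, leaving out predicted, clone, pseudogene and mitochondrial names; 1 gene near Odc1 is not reported here. Il17a and Foxp3 were added to check the labels, and Foxp3 stood higher in naive (129 CPM) than in Treg (51.5 CPM). The calling rule was tested on simulated counts that held counting error only, which says nothing about variation between replicates. Near-identical copies, at least 300 bases at 95% identity or more, were found with minimap2 2.31. Alternatives used DESeq2 1.42.0 size factors, upper quartile factors, library totals, other pseudocounts, filters and fold thresholds, and FPKM. A planned comparison of protein sequences was not made. Figures were drawn with matplotlib 3.10.9, and tables made in Python 3.11.15 with scipy 1.17.1, pandas 2.3.3 and numpy 2.4.6.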

Additional observations from a re-analysis of the deposited data

Results flagged for a closer look

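A pair of members stood on opposite sides of the naive library in different cultures, with counting intervals that excluded equality and a direction kept under all 4 scalings. Srm had a log2 ratio over naive of 1.04 in Th17 and 0.70 in Treg, but -0.73 in Th0. Sat1 had a log2 ratio over naive of -0.92 in Th17 and -1.17 in Treg, but 0.42 in Th0. With library totals the Sat1 ratio for Th0 over naive was 0.14, so its size depended on the scaling. Each group had 1 library, so the difference between cultures was not tested.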

How the results depend on the processing

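No paired analysis was possible because each group had 1 library, and for the same reason no replicate could be left out. The number of members called in Th0 over naive depended most on the setting. It was 2, and became 0 with library totals, 0 with the authors' FPKM, 1 with upper quartile scaling, 1 with a pseudocount of 5 CPM, 5 at 1.5-fold and 0 at 3-fold. Elsewhere the count moved by over 1.5 times with the fold threshold alone, to 1 from 3 at 3-fold for Treg over naive, to 6 from 3 at 1.5-fold for Th17 over Th0, to 0 from 4 at 3-fold for Treg over Th0, and to 1 from 0 at 1.5-fold for Th17 over Treg. Library totals shifted the median log2 ratio of all genes by 0.27 in Th17 and 0.31 in Treg relative to Th0, and by -0.25 in Th0 relative to naive. With them 3528 genes were higher and 922 lower in Th17 over Th0 (2720 and 1622 with TMM), 3629 and 810 in Treg over Th0 (2658 and 1565), and 1884 and 4482 in Th0 over naive (2590 and 3803). Of 420 recomputed member ratios, 375 kept their call or, if not called, stayed within the counting interval, 10 lost a call, 3 gained one and 32 moved beyond the interval without a call. Over all genes, calls with a pseudocount of 5 CPM were 2975 (4806 with 1 CPM) for Th17 over naive, 2812 (4555) for Treg over naive, 2631 (4342) for Th17 over Th0, 2460 (4223) for Treg over Th0 and 156 (421) for Th17 over Treg, where 0.1 CPM gave 789, and 4220 (6393) for Th0 over naive. With the authors' FPKM they were 2866 for Th17 over Th0, 2760 for Treg over Th0 and 200 for Th17 over Treg. At 1.5-fold they were 7700, 7360, 7492, 7244 and 1547 for the 5 comparisons other than Th0 over naive, and at 3-fold 2633, 2459, 3474, 1730, 1597 and 110 for all 6. No called ratio reversed. Among 60 member ratios, 9 that were not called changed sign between scalings. Of the 5 genes nearest to Odc1, and of those nearest to Sat1, 4 were also nearest with library totals.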
